A study of Mus musculus with 20 samples.

Results

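Slc11a2 encodes DMT1, a proton-coupled carrier of ferrous iron, and Slc11a1 encodes its closest relative in the mouse, NRAMP1. All probe sets (groups of array probes that read 1 stretch of RNA) whose only annotated gene symbol is one of these 2 genes were taken. There are 5 of them among 45037 tested, 4 for Slc11a2 (1417584_at, 1426441_at, 1441709_at and 1452078_a_at) and 1 for Slc11a1 (1420361_at). Another 0 probe sets list either symbol among several. The platform annotation pairs 1426441_at and 1452078_a_at with the same sequence record, so they are not independent readings of the gene. The files do not say which transcript form each probe set reads, and probe sequences were not used here.

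DMT1 carries iron from the gut lumen into duodenal enterocytes and, in other cells, out of endosomes after uptake of transferrin. Some transcripts of its gene are known to carry an iron-responsive element (IRE) in the 3' untranslated region and others to lack it. The IRE is an RNA stem-loop bound by iron regulatory protein 1 (IRP1) when cells are short of iron. NRAMP1 moves metal ions out of the phagosomes of macrophages and neutrophils, and no IRE is known in its mRNA. Mice of the C57BL/6 background are known to carry a variant of Slc11a1 that impairs the protein. The arrays read its RNA.

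RNA recovered with IRP1 was compared with RNA recovered without it in 5 mouse tissues, with 2 arrays for each reaction in each tissue, or 20 arrays in 10 groups. In the IRP1 reaction, bacterially made His-tagged IRP1 was added to 50 µg of total RNA and pulled down with a rabbit antibody against it, and in the control reaction the protein was left out, per the titles and the series text (another label field names the protein for the controls too). Duodenum, liver and spleen came from C57BL6/J mice fed an iron-poor diet (under 10 mg iron per kg) for 21 days from weaning. Bone marrow and brain came from C57BL6/J mice of 8 to 10 weeks on an iron-normal diet. Both sexes were mixed, and RNA was pooled within a tissue (4 mice for 1 duodenum sample, 6 for brain or bone marrow), so p-values measure the spread between reactions and arrays, which may be technical. About 120 ng of recovered RNA went onto each Affymetrix Mouse430_2 array after 2 cycles of amplification. Diet and age go with tissue and cannot be told apart from it.

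Values are log2 signals as the authors deposited them. Array medians lay between 5.50 and 5.62 and array maxima between 15.14 and 15.35, and changes are known to be compressed near both ends of such a scale. The mean of each tissue's marker list was highest in that tissue, though not every single marker was. In the controls the neural marker Mbp read 8.09 in brain and 9.15 in bone marrow. The hepatocyte marker Apoa1 read 13.79 in liver and 13.92 in duodenum. The 7 enterocyte markers averaged 13.20 to 13.60 (log2 signal) in duodenum and at most 9.78 elsewhere, and 7 hepatocyte markers 12.88 to 13.70 in liver. Spleen was highest for 6 B and T cell markers (9.54 to 10.19), bone marrow for 8 neutrophil precursor markers (13.14 to 13.58) and brain for 7 neuron and glia markers (9.76 to 10.07). Pancreatic acinar markers were also bright in duodenum (12.56 to 14.19) and spleen (9.09 to 10.39). Both spleen arrays numbered 2 had dim spike-in hybridization controls, at log2 -1.06 (IRP1) and -1.26 (control) relative to the median array. Bone marrow control array 1 came next, at -0.74, just inside the limit of log2 0.75 below the median array.

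RNA read by 3 of the 4 Slc11a2 probe sets was enriched by IRP1, and RNA read by the remaining one was not detectably so. In the mean of the 5 tissues, 1452078_a_at rose 3.59-fold (log2 1.84, SE 0.14, limma adjusted p = 9.63e-07), 1426441_at 3.08-fold (log2 1.62, SE 0.11, adjusted p = 2.93e-07) and 1441709_at 2.19-fold (log2 1.13, SE 0.11, adjusted p = 1.28e-05). A call, here and below, is an adjusted p under 0.05 over all probe sets, and 0.773% of all probe sets were called higher and 1.03% lower in this mean. Ordered by their change over all 45037 probe sets, the 3 stood at ranks 27, 32 and 77. With a floor at log2 6, the mean change of 1441709_at was log2 0.49 (adjusted p = 0.0338). Probe set 1417584_at stood at log2 0.02 (95% interval -0.29 to 0.32, adjusted p = 0.971), rank 19075. Slc11a1 stood at log2 -0.03 (95% interval -0.21 to 0.15, adjusted p = 0.901).

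**Figure D1:**
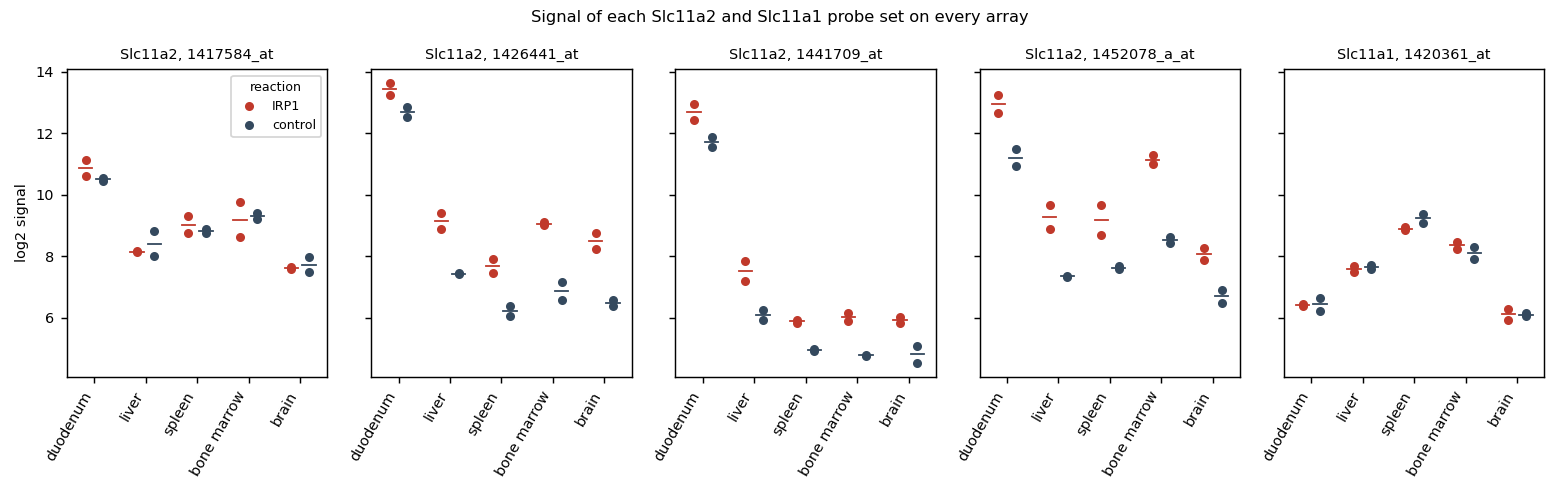
Log2 signal of the 5 probe sets (1 panel each) on every array, by tissue, with IRP1 arrays in red left of controls in dark blue and a bar at each mean of 2 arrays. In 3 Slc11a2 panels both red points lie above both blue points in all 5 tissues, while the reactions overlap in most tissues for 1417584_at and for Slc11a1.

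In all 5 tissues, both IRP1 arrays lay above both controls for 1426441_at, 1441709_at and 1452078_a_at, which holds for 0.409% of all probe sets. In the deposited values bone marrow showed the widest gaps of 1426441_at and 1452078_a_at. There 1452078_a_at read 10.99 and 11.31 in the IRP1 arrays, against 8.42 and 8.64 in the controls. For 1426441_at the IRP1 arrays of bone marrow read 9.01 and 9.12, against 6.60 and 7.17 in the controls. Both rose, by 6.13-fold (log2 2.61, SE 0.31, adjusted p = 0.000749) and 4.54-fold (log2 2.18, SE 0.25, adjusted p = 0.000456), among 0.127% of probe sets called higher in this tissue. The third, 1441709_at, read 6.16 and 5.89 with IRP1 and 4.78 and 4.80 without it, a dim signal below the array medians in the controls, and was not called (log2 1.23, adjusted p = 0.0654). Some alternatives did call it there, with adjusted p = 0.0433 after quantile normalization, 0.0464 with a variance trend and 0.0411 with a filter on dim probe sets. The order of the tissues also moved with quantile normalization. The gap of 1426441_at was then log2 1.96 in bone marrow, 2.02 in liver and 2.18 in brain. That of 1452078_a_at was 2.28 in bone marrow and 2.26 in liver. Both bone marrow calls held without each of the 20 arrays in turn.

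Liver was the tissue in which all 3 of these probe sets were called higher, against 0.091% of all probe sets. Signal of 1452078_a_at was 8.88 and 9.66 with IRP1 and 7.34 and 7.36 in the controls (3.78-fold, adjusted p = 0.0201). For 1426441_at it was 8.88 and 9.39 with IRP1 and 7.46 and 7.43 in the controls (3.25-fold, adjusted p = 0.0112). For 1441709_at it was 7.19 and 7.86 with IRP1 and 5.93 and 6.26 in the controls (2.70-fold, adjusted p = 0.0214). In each case the 2 IRP1 arrays stood further apart than the 2 controls. The groups did not overlap, as in the other tissues, and 0.409% of all probe sets were so separated in all 5. All 3 calls were lost without control array 1 (adjusted p = 0.104, 0.282 and 0.193 for 1426441_at, 1441709_at and 1452078_a_at), without IRP1 array 2 (0.0962, 0.129 and 0.124) and without control array 2 (0.0639, 0.0631 and 0.0736). In a fit to the 4 liver arrays alone that of 1441709_at was lost (adjusted p = 0.122).

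In brain, 1426441_at rose 4.05-fold (log2 2.02, SE 0.25, adjusted p = 0.00117), with 8.24 and 8.76 in the IRP1 arrays and 6.39 and 6.58 in the controls, and 0.0866% of probe sets were called higher. This call held without each array in turn. In a fit to the 4 brain arrays alone the call of 1426441_at was lost (limma adjusted p = 0.360). Not called in brain were 1452078_a_at, at 7.89 and 8.29 with IRP1 and 6.49 and 6.92 without it (log2 1.38, adjusted p = 0.178), and 1441709_at, at 6.02 and 5.85 with IRP1 and 5.09 and 4.55 without it (log2 1.12, adjusted p = 0.125). Their IRP1 arrays still lay above both controls, as in the other tissues, and 0.409% of all probe sets were so separated in all 5.

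The spleen pattern was like that of brain in its single call, against 0.0688% of all probe sets: 1426441_at rose 2.76-fold (log2 1.46, SE 0.25, adjusted p = 0.0266), with 7.47 and 7.92 in the IRP1 arrays and 6.39 and 6.07 in the controls. It was lost without control array 1 (adjusted p = 0.149), IRP1 array 2 (0.161) or control array 2 (0.400), and without both spleen arrays that had low hybridization controls (log2 1.07, adjusted p = 0.693). Signal of 1452078_a_at was 8.70 and 9.66 with IRP1 and 7.59 and 7.68 in the controls, a gap of log2 1.54 (SE 0.31, adjusted p = 0.0945). Without IRP1 array 1 it stood at log2 2.02 and was called (adjusted p = 0.00804). The dim 1441709_at read 5.92 and 5.85 with IRP1 and 4.93 and 4.995 without it (log2 0.92, adjusted p = 0.233).

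Duodenum, where Slc11a2 was brightest, gave the smallest gap for 1426441_at: 13.63 and 13.26 in the IRP1 arrays, against 12.87 and 12.53 in the controls (log2 0.74, 95% interval 0.22 to 1.27, adjusted p = 0.885). There 1452078_a_at rose 3.36-fold (log2 1.75, SE 0.31, adjusted p = 0.0434), with 13.26 and 12.65 in the IRP1 arrays and 11.47 and 10.93 in the controls, among 0.0799% of probe sets called higher. Leaving out 1 array at a time ended this call for 14 of the 20 arrays, each of the 4 duodenum arrays among them (adjusted p = 0.0532 to 0.776). Signal of 1441709_at was 12.95 and 12.43 with IRP1 and 11.88 and 11.57 in the controls (log2 0.97, adjusted p = 0.337). All 3 gaps separated the reactions, as held for 16.6% of all probe sets in duodenum.

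**Figure D2:**
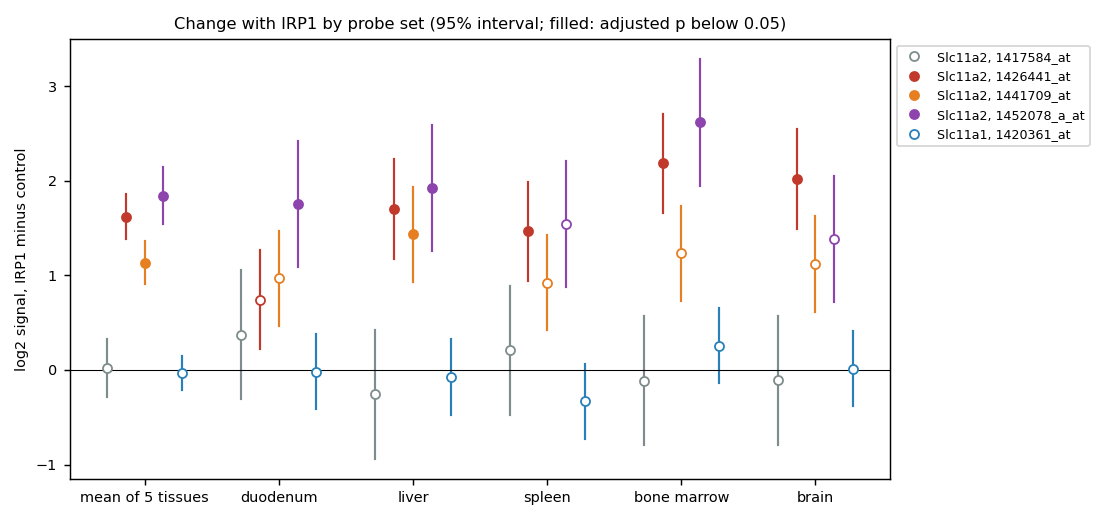
Change in log2 signal, IRP1 minus control, for each probe set in the mean of the tissues and in each tissue, with 95% intervals of the limma model and filled points where the adjusted p was under 0.05. The intervals of 3 Slc11a2 probe sets lie above 0 in every tissue, and those of 1417584_at and Slc11a1 include 0 in every tissue.

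Whether enrichment differed between tissues was asked with an F-test of the tissue effects. Among the members 0 were called by limma, and 1 of them, 1426441_at, had an unadjusted p under 0.05 (limma adjusted p = 0.930). Across all probe sets 0.0111% were called. The spread from log2 0.74 in duodenum to 2.18 in bone marrow for 1426441_at, and from 1.38 in brain to 2.61 in bone marrow for 1452078_a_at (adjusted p = 0.930), is therefore reported as values.

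Probe set 1417584_at gave a different picture. In duodenum it read 11.12 and 10.62 with IRP1 and 10.55 and 10.45 without it. It read 8.17 and 8.14 in IRP1 arrays of liver, against 8.01 and 8.82 in the controls. In duodenum alone the reactions did not overlap, which held for 16.6% of all probe sets there. In spleen it had 8.76 and 9.30 with IRP1 and 8.88 and 8.77 without it. In bone marrow it had 8.62 and 9.77 with IRP1, the widest spread of its groups, and 9.21 and 9.41 without it. The brain IRP1 arrays gave 7.59 and 7.64, against 7.48 and 7.98 in the controls. It was called in 0 of the 5 tissues by limma (0 at an unadjusted p under 0.05), with changes from log2 -0.26 in liver to 0.37 in duodenum. The upper 95% bound of its change in the mean of the tissues, log2 0.32, lay under the lower bounds of 1426441_at (1.39), 1441709_at (0.91) and 1452078_a_at (1.54).

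The difference between probe sets was tested directly. The within-array difference of 2 probe sets was compared between the reactions, with an exact two-sided permutation of the reaction labels within each tissue (7776 arrangements), for all 6 pairs. The change of 1417584_at was lower than that of 1452078_a_at by log2 1.82 (1417584_at minus 1452078_a_at, -1.82), with gaps of -1.34 in spleen to -2.73 in bone marrow. It was also lower than the changes of 1426441_at (-1.60) and 1441709_at (-1.12). Each of these 3 had p = 0.000257, the smallest these arrangements can give (adjusted p = 0.000514, exact permutation), and the sign was the same in 5 of 5 tissues. With a floor at log2 6 the difference from 1441709_at was -0.47 (adjusted p = 0.0781). The changes of 1426441_at and 1441709_at differed by 0.49 (adjusted p = 0.0133, exact permutation), with the opposite sign in duodenum (-0.22), and those of 1441709_at and 1452078_a_at by -0.71 (adjusted p = 0.00386, exact permutation). With the floor at log2 6 these 2 differences were 1.13 (adjusted p = 0.00579, exact permutation) and -1.35 (adjusted p = 0.000514, exact permutation), so their size rests on the dim signals of 1441709_at. Between 1426441_at and 1452078_a_at, which share a sequence record, the difference was -0.22 and did not pass (adjusted p = 0.186, exact permutation), with -1.01 in duodenum and 0.63 in brain. That these pairs include the contrast that prompted them was known beforehand, so the tests describe this series and are no independent evidence.

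Levels of Slc11a2 across tissues were read in the control arrays, which hold the RNA recovered without IRP1 and not the tissue's total RNA. Each value is a probe set's own level and is not set against that of another. By all 4 probe sets duodenum was highest, higher than each other tissue in all 16 of these comparisons by limma. How far it stood above the rest varied with the probe set. It stood above liver by 49.5-fold for 1441709_at (log2 5.63, SE 0.24, adjusted p = 1.06e-11), 38.3-fold for 1426441_at (log2 5.26), 14.4-fold for 1452078_a_at (log2 3.85) and 4.25-fold for 1417584_at (log2 2.09, SE 0.32, adjusted p = 8.25e-05). Duodenum stood above bone marrow by 56.3-fold for 1426441_at, 6.35-fold for 1452078_a_at and 2.29-fold for 1417584_at. No fold is given for 1441709_at there, because its bone marrow controls lay below the array medians. Of all probe sets, 27.5% differed between the controls of duodenum and liver, 29.6% between duodenum and bone marrow, 32.3% between duodenum and spleen and 39.6% between duodenum and brain. Fewer cells of a type and less RNA per cell cannot be told apart in such bulk samples.

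**Figure D3:**
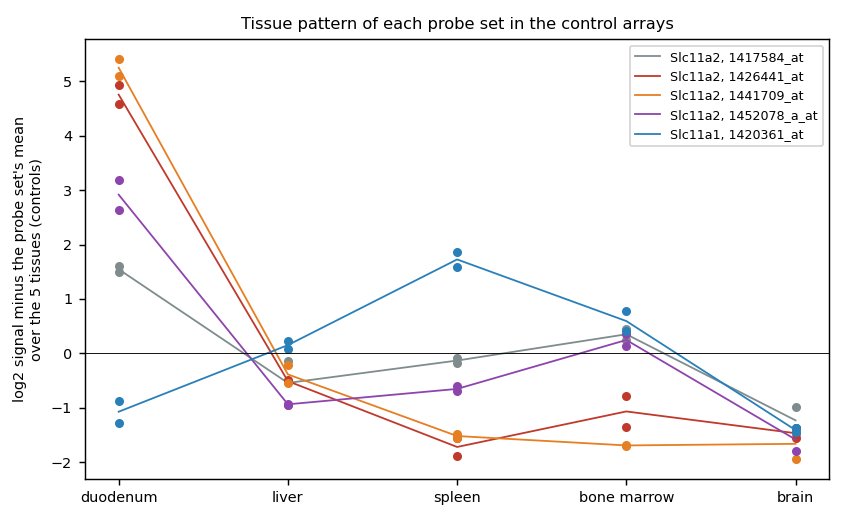
Log2 signal of the 10 control arrays by tissue for each probe set, centred on that probe set's mean over the 5 tissues, with points for arrays and lines through the means. Duodenum stands furthest above the rest for 1441709_at and 1426441_at and least for 1417584_at among Slc11a2 probe sets, and Slc11a1 peaks in spleen.

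Below duodenum, the order depended on the probe set. For 1452078_a_at and 1417584_at bone marrow came next, with control means of 8.53 and 9.31, each on its own scale. Bone marrow was 2.27-fold above liver by 1452078_a_at (adjusted p = 0.00735) and 1.86-fold by 1417584_at (adjusted p = 0.0424), where 32.5% of all probe sets differed. For both, brain was the lowest, 3.55-fold (adjusted p = 0.000141) and 2.99-fold (adjusted p = 0.000691) below bone marrow, where 41% of all probe sets differed. The neighbours bone marrow and spleen, spleen and liver, and liver and brain were not separated by either (adjusted p from 0.0583 to 0.502).

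For 1426441_at and 1441709_at liver came second. By 1426441_at, liver exceeded spleen by 2.31-fold (adjusted p = 0.000903), where 38.4% of all probe sets differed, and brain by 1.94-fold (adjusted p = 0.00517), where 40.5% differed. Liver and bone marrow were not separated by it (adjusted p = 0.103), nor were bone marrow, brain and spleen from each other (adjusted p from 0.0805 to 0.504). For 1441709_at the liver controls read 5.93 and 6.26, while those of bone marrow, brain and spleen lay between 4.55 and 5.09, below the array medians. Its order among these 3 tissues and its folds against them are not read. In all, 35 of 50 comparisons of 2 tissues were called for the 5 members, against 18.4% to 41% of all probe sets in the 10 pairs of tissues, and 29 were called with a floor at log2 6.

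That the probe sets of Slc11a2 differ in tissue pattern was tested on the 10 control arrays, with an exact permutation of the tissue labels (945 distinct arrangements) of the within-array difference of 2 probe sets. Patterns differed between 1417584_at and 1426441_at (adjusted p = 0.00952) and between 1417584_at and 1441709_at (adjusted p = 0.00635, exact permutation). They also differed between 1452078_a_at and 1426441_at (adjusted p = 0.00847) and between 1452078_a_at and 1441709_at (adjusted p = 0.00635). The pairs 1417584_at with 1452078_a_at (adjusted p = 0.0749) and 1426441_at with 1441709_at (adjusted p = 0.148) did not pass. The probe set without detectable enrichment had the same order of tissue means as 1452078_a_at, and the 2 probe sets of 1 sequence record differed in tissue pattern. This test was added after the values had been seen.

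Enterocyte markers moved with the duodenal level of Slc11a2. Over the 10 group means, which span all tissues and both reactions, the mean of these markers was correlated with each probe set. It gave r = 0.93 with 1441709_at, 0.86 with 1426441_at, 0.68 with 1417584_at and 0.63 with 1452078_a_at. The points share arrays and a scale, and duodenum stands apart in each. In liver arrays the mean of these markers was 8.55 to 9.78, against 4.71 to 5.97 in bone marrow, brain and spleen. Liver also came second for 1426441_at and 1441709_at. The markers were uneven in the liver controls, where Fabp1, Apoa4, Fabp2 and Mttp read 10.27 to 13.94 and Alpi 7.36. Vil1 and Lct read 5.81 and 5.59 there, near the array medians. Some of these genes, such as Fabp1, a fatty acid binding protein, are also made by hepatocytes, and the part of the markers in the levels was not tested. In the mean of the tissues 0 of the 7 enterocyte markers were called between reactions by limma (0 at an unadjusted p under 0.05).

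Slc11a1 was highest in spleen, and IRP1 did not detectably change it in any tissue. Its spleen arrays read 8.95 and 8.85 with IRP1 and 9.38 and 9.09 without it (log2 -0.33, 95% interval -0.73 to 0.06, adjusted p = 0.602). Both IRP1 arrays there lay below both controls, as they did for 22.1% of all probe sets. Bone marrow gave 8.47 and 8.25 with IRP1 and 7.92 and 8.29 without it, and the reactions overlapped (log2 0.26, adjusted p = 0.964). Liver read 7.69 and 7.49 with IRP1 and 7.60 and 7.73 in the controls. Duodenum had 6.46 and 6.39 with IRP1 and 6.65 and 6.24 without it. Brain, the lowest, had 6.29 and 5.94 with IRP1 and 6.15 and 6.06 without it. The reactions overlapped in these 3 tissues too, and Slc11a1 was called in 0 of the 5 tissues by limma (0 at an unadjusted p under 0.05).

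Across the controls, Slc11a1 was 2.19-fold higher in spleen than in bone marrow (log2 1.13, SE 0.19, adjusted p = 0.000382), where 18.4% of all probe sets differed. Spleen exceeded liver by 2.97-fold (adjusted p = 3.70e-06) and brain by 8.77-fold (adjusted p = 4.40e-10, among 38.2% of probe sets called). Liver exceeded duodenum by 2.33-fold (adjusted p = 8.03e-05). The neighbours bone marrow and liver (adjusted p = 0.0876) and duodenum and brain (adjusted p = 0.178) were not separated.

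The mean of the macrophage and monocyte markers followed the same order of tissues as Slc11a1. All 12 were measured, and their mean log2 signal was 10.08 to 10.87 in spleen, 9.41 to 9.72 in bone marrow, 8.74 to 9.16 in liver, 7.99 to 8.22 in duodenum and 7.02 to 7.17 in brain. Most single members did not follow this order. By control means, only Cd68 and Mpeg1 of the 12 did. Clec4f read 9.90 in liver and 5.32 in spleen, and Lyz2 13.66 in bone marrow and 12.82 in spleen. Fcgr3 was also higher in bone marrow (9.99) than in spleen (9.53). Csf1r, Adgre1, Cd14, Marco and Cd163 were higher in liver than in bone marrow, with Marco at 8.87 and 6.02. Vcam1 was higher in brain than in duodenum, and Ctss higher in duodenum than in bone marrow. The list mean correlated with Slc11a1 over the 10 group means at 0.98. For the 7 measured erythroid precursor markers it was 0.83 and for the 8 neutrophil precursor markers 0.59. In spleen these macrophage markers read 10.08 and 10.73 with IRP1 and 10.60 and 10.87 without it, beside the lower IRP1 values of Slc11a1 there. Between reactions, 0 of the 12 were called in the mean of the tissues by limma (1 lower at an unadjusted p under 0.05). Their part in the levels of Slc11a1 was not tested.

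**Figure D4:**
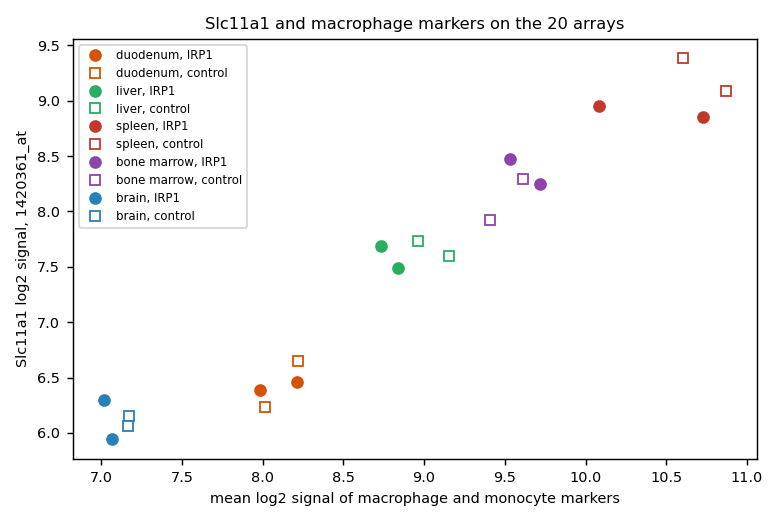
Log2 signal of Slc11a1 against the mean log2 signal of 12 macrophage and monocyte markers on the 20 arrays, coloured by tissue, with filled circles for IRP1 arrays and open squares for controls. Tissue means lie in 1 order on both axes, from brain to spleen, but single arrays of brain and duodenum overlap on the Slc11a1 axis. The reactions of a tissue lie together.

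Genes with the most similar pattern were found by the correlation of log2 signal over the 10 group means, which share arrays, among 15306 probe sets with 1 gene symbol and an SD of at least 0.5 over those means. For Slc11a1 they were Treml4, a receptor of myeloid cells (r = 0.991), Cd36, a scavenger receptor (0.990), and Cd68, a lysosomal glycoprotein of macrophages and a member of the marker list (0.989). For 1441709_at they were the mucin Muc4 (0.991), the intestinal alkaline phosphatase Akp3 (0.989) and Chchd7 (0.989), and for 1417584_at Pon2 (0.992), Chmp1b (0.988) and Arhgap18 (0.988). Those of the more strongly enriched pair were less alike: Abhd11os (0.972), Syce3 (0.965) and Cym (0.964) for 1426441_at, and Fadd (0.958), Gna13 (0.940) and Tm9sf3 (0.929) for 1452078_a_at.

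Most measured mRNAs known or reported to carry an IRE were enriched as well. Of 10 such genes 8 were measured by a probe set with 1 symbol, and 6 were called higher in the mean of the tissues and 0 lower, with a median of log2 1.33 beside -0.01 over all probe sets. The called ones ran from Fth1, the ferritin heavy chain (log2 0.84), through Hao1, Epas1 and Slc40a1 (ferroportin, the iron exporter, log2 1.36) to Tfrc, the transferrin receptor (log2 2.19), and Alas2, the first enzyme of erythroid heme synthesis (log2 2.22). The 3 enriched Slc11a2 probe sets lay within that range. The control means of Hao1 lay below the array medians in duodenum, spleen, bone marrow and brain, and at 10.70 in liver. Its change in liver, log2 2.03, is thus the readable one, and it was not called (limma adjusted p = 0.139). The remaining measured genes, Cdc14a (log2 -0.10, adjusted p = 0.769) and Cdc42bpa (log2 0.13, adjusted p = 0.519), were not called.

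For carriers and enzymes that work beside DMT1 but have no known IRE, no change was called. Of 22 measured genes of iron entry, exit and reduction, 0 were called in either direction by limma (0 higher and 2 lower at an unadjusted p under 0.05), with a median of log2 -0.08. With 0.773% of all probe sets called higher and 1.03% lower in this mean, a count of 0 in lists of this size does not set them apart from other genes. Cybrd1, the duodenal ferric reductase, stood at log2 -0.19 (adjusted p = 0.760) and Heph, the ferroxidase of the basolateral membrane, at -0.07 (adjusted p = 0.787). Both were bright in duodenum alone (control means 13.17 and 11.27) and lay below the array medians elsewhere. Their changes in duodenum, log2 -0.29 and 0.16, are thus the readable ones, and neither was called. Tfr2, a relative of the transferrin receptor, stood at -0.14 (adjusted p = 0.491) and Slc39a14, a carrier of zinc and iron, at -0.21 (adjusted p = 0.262). These 4 were chosen for their roles after the values had been seen.

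Of 13 measured genes that control or sort the DMT1 protein, 0 were called (0 higher and 2 lower at an unadjusted p under 0.05, median log2 -0.12), with Ndfip1, an adaptor of the ubiquitin ligases that act on DMT1, at log2 -0.14 (adjusted p = 0.610) and Vps35, a retromer subunit, at -0.38 (adjusted p = 0.146). Of 20 zinc, copper and other metal carriers and metallothioneins, 0 were called (2 higher and 5 lower at an unadjusted p under 0.05, median log2 -0.18). Atp7b, a copper pump, was the highest at log2 0.26 (adjusted p = 0.110) and Slc30a9 the lowest at -0.41 (adjusted p = 0.123). Ndfip1, Vps35, Atp7b and Slc30a9 were also picked after the values had been seen.

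**Figure D5:**
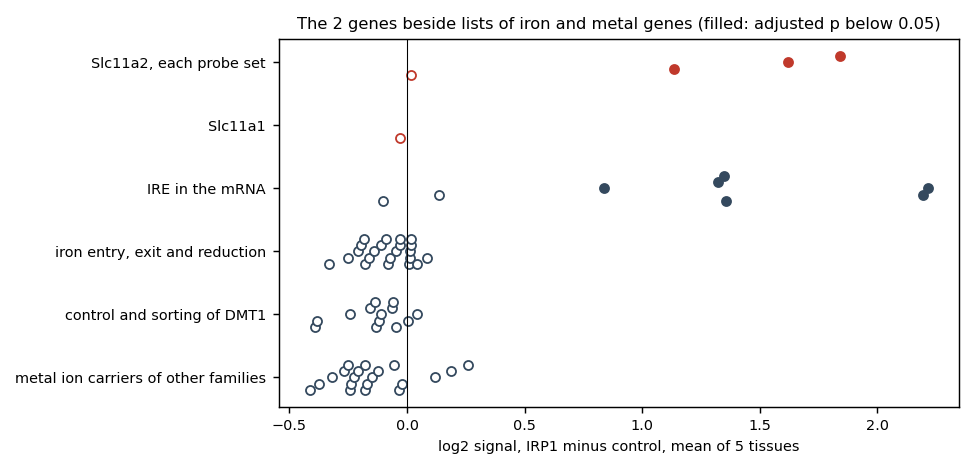
Change in log2 signal, IRP1 minus control, in the mean of the 5 tissues, with 1 point per Slc11a2 or Slc11a1 probe set (red) and 1 point per gene of 4 lists (dark blue), filled where the adjusted p was under 0.05. Filled points are 3 of 4 Slc11a2 probe sets and 6 of 8 genes with an IRE, and the other 3 lists have none.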

How the data were processed

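The authors deposited 1 table of log2 signals, with a column for each of 20 Mouse430_2 arrays. Per the series design text, the authors made them with RMA, or with MAS5 in GCOS followed by quantile normalization. Which of these was used is not stated. The log2 values were analysed as deposited, without the 64 control probe sets. Gene symbols come from the platform annotation, which can be old. Positions and sequences are not printed.

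All 10 groups entered a single limma fit (version 3.58.1, lmFit with eBayes, 10 residual degrees of freedom, R 4.3.3). Contrasts were IRP1 minus control per tissue and averaged over 5 tissues, an F-test between tissues, and pairs of tissues over controls. P-values were adjusted by Benjamini-Hochberg over 45037 probe sets within a contrast, and those of exact permutation tests over 6 pairs. In lists, a gene is its brightest probe set. The number of arrays limits the precision. Group and replicate come from sample titles. The scripts were tested on simulated data. Figures were drawn with matplotlib 3.10.9 in Python 3.11.15.

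Named were all member probe sets and, for each, the 3 genes most alike in pattern. Up to 4 called genes of each list without an IRE could be named too, but 0 were called. Members, lists and tests were chosen with earlier results of these data known. Alternatives were quantile normalization, median centring, a floor at log2 6, a replicate block, array weights, a variance trend, a filter on dim probe sets (log2 6 on at least 2 arrays), fits per tissue and leaving out each array.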

Additional observations from a re-analysis of the deposited data

How the results depend on the processing

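In the mean of the 5 tissues, 3 Slc11a2 probe sets and 0 of Slc11a1 were called higher under every alternative run, including without each of the 20 arrays. The counts for Slc11a2 in single tissues moved. In duodenum, with 1 called as reported, there were 0 with the floor and 0 in a fit to the tissue's 4 arrays, and 0 to 1 without single arrays. In spleen, with 1 as reported, there were 2 with quantile normalization, 2 with a filter on dim probe sets, 0 in the fit to its 4 arrays, 0 without the 2 arrays with low hybridization controls (added after the data were seen), and 0 to 2 without single arrays. In brain, with 1 as reported, there were 2 with quantile normalization and 0 in the fit to its 4 arrays. In liver, with 3 as reported, there were 2 in the fit to its 4 arrays and 0 to 3 without single arrays. In bone marrow, with 2 as reported, there were 3 with quantile normalization, a variance trend or a filter on dim probe sets, and 2 to 3 without single arrays. The causes were not tested. A replicate block gave 2 in spleen, 3 in brain and 3 in bone marrow (1441709_at, adjusted p = 0.0109) and changed none of the counts in the mean, duodenum or liver. The numbers share a label but were not taken as pairs, since same-numbered deviations correlated at -0.07 in liver and -0.04 in bone marrow, against 0.12 to 0.53 in the other tissues. Of 50 comparisons of levels between tissues, 35 were called as reported, 39 with quantile normalization and 29 with the floor. Quantile normalization and median centring moved the median change with IRP1 over all probe sets by at most 0.05 on the log2 scale in any tissue. Single members moved further. With quantile normalization the change of 1452078_a_at went from log2 1.92 to 2.26 in liver and from 2.61 to 2.28 in bone marrow. Signals below about the array median limit what can be read of 1441709_at outside duodenum and liver: with the floor its change in the mean was log2 0.49 (adjusted p = 0.0338).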
